A study of Mus musculus with 2 samples.

Results

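The genes described here are 45 genes for the non-collagen matrix of connective tissue and for the enzymes that remodel it, measured by total RNA-seq in the newborn mouse adrenal gland. They were found by matching the Ensembl identifiers of the gene tables to a list of symbols that was drawn up with earlier results of these data known. The rule itself uses no expression values, and all 45 of the 45 symbols matched 1 of the 43346 Ensembl genes. The 3 CCN genes appear under their older symbols Cyr61, Ctgf and Nov, which are now Ccn1, Ccn2 and Ccn3. There was 1 group of 2 libraries, pup 1 and pup 2, both of strain B6NCrl at postnatal day 0, with no genetic change or treatment named. Each library came from the 2 adrenals of 1 pup, so cells of cortex, medulla, capsule and vessels were pooled. Both pups carry the same number for the pregnant animal, the libraries started from 10 ng of RNA with spike-ins added, and sex was not collected. The design therefore gives levels in the newborn gland and the distance between 2 pups, with no contrast between conditions. Each pup is 1 library, so no test was possible and no p-value is given.

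Connective tissue cells secrete a gel of proteoglycans and glycoproteins around their collagen fibres. Small leucine-rich proteoglycans bind collagen and set fibril width, fibrillin microfibrils carry elastin and store latent TGF-beta, and lysyl oxidases crosslink both elastin and collagen. Metalloproteinases cut this matrix and the TIMP proteins inhibit them. In the adrenal gland the densest connective tissue is the capsule, which also houses stromal cells that can give rise to cortical cells, and thinner strands run along the vessels between the cortical cords.

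The library of pup 1 held 41510071 estimated counts and that of pup 2 held 40800539, and the 45 genes made up 1.199% and 1.018% of them. Single members had from 120 to 115684 counts in pup 1 and from 127 to 164169 in pup 2, so counting error was small for nearly all of them. Levels are given as TPM, which corrects for transcript length and can be compared between genes. Differences are given as the log2 ratio of pup 2 over pup 1 of counts scaled with TMM, a factor that sets the typical gene to no difference. A negative ratio thus means higher in pup 1 relative to the typical gene. The TPM of the median gene was itself higher in pup 2 by 0.39 on the log2 scale, which is why a gene can be level in TPM and negative in the ratio. Intervals beside ratios are exact binomial 95% intervals that cover counting error only. Spike-ins made up 0.0138% of the counts of pup 1 and 0.00250% of those of pup 2, and scaling to them moved the median of all genes to 2.57, so every direction below is relative to other genes and all 45 members are higher in pup 2 on the spike-in scale.

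All 45 genes reached a TPM of 1 in both pups, against 32.9% of all Ensembl genes and 60.4% of protein-coding nuclear genes. Together they summed to 6280.3 TPM in pup 1 and 7249 in pup 2 (6765 ± 685, SD, n = 2). Sparc alone supplied 30.8% and 53.0% of that, and without it the other 44 genes summed to 4349 TPM in pup 1 and 3409 in pup 2. Besides Sparc, 8 genes exceeded 100 TPM in both pups, namely Mgp, Dcn, Postn, Pcolce, Mfap5, Mfap2, Ogn and Timp3. At the other end, Nov and Mmp9 stayed under 5 TPM in both. The set thus spanned 3 orders of magnitude, with glycoproteins supplying 53.2% and 64.7% of the sum, proteoglycans 17.7% and 10.6%, elastic fibre genes 15.5% and 11.4%, and proteases with their inhibitors 10.2% and 11.2%.

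**Figure D1:**
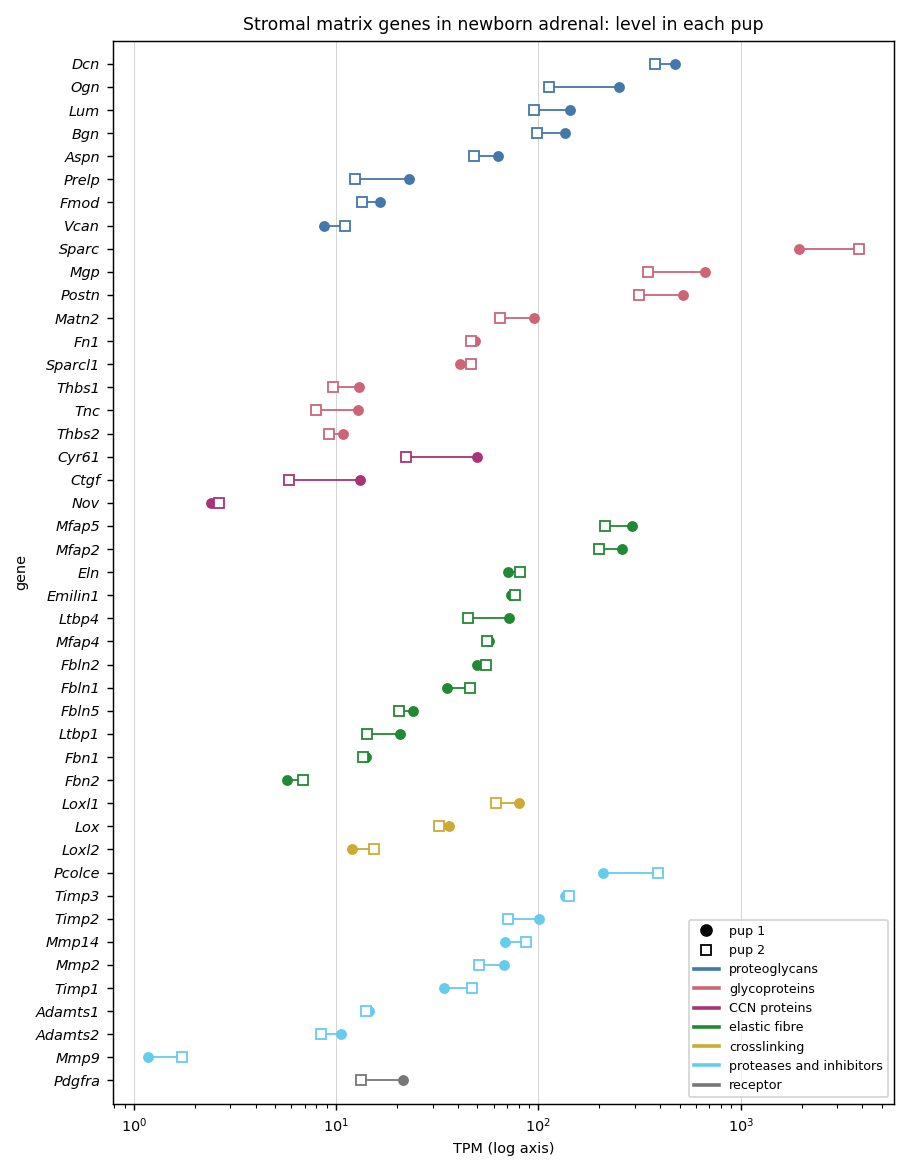
Level of each of the 45 genes in pup 1 (filled circles) and pup 2 (open squares), in TPM on a log axis, ordered within classes by mean level, with lines joining the pups. Sparc stands highest at 1932 and 3840 TPM, Mmp9 lowest at 1.18 and 1.74 TPM, and the open squares lie to the left for Ogn and Cyr61 and to the right for Sparc and Pcolce.

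Between the pups, 41 of the 45 genes were higher in pup 1 on TMM-scaled counts, where 49.9% of the 18670 genes tested were (those whose counts averaged 10 or more). The 4 that were higher in pup 2, where 50.1% of all genes were, were Sparc, Pcolce, Vcan and Timp1. The median log2 ratio of the 45 was -0.67, with quartiles of -0.92 and -0.20, beside a median of 0.00 and quartiles of -0.45 and 0.34 for all genes tested. Over 2-fold apart were 9 members, all of them higher in pup 1, and 15.8% of all genes tested were over 2-fold apart in either direction. In pup 1 alone that share was 9.77%. Most members are well counted, and among the 7509 genes averaging 1000 counts or more the share over 2-fold apart was 5.49% and the share higher in pup 1 was 45.3%. The counting interval excluded 0 for 40 of the 45. That interval covers the sampling of reads and not how pups vary, and it narrows as counts rise. The share of all genes whose interval excludes 0 was not computed, so the 40 do not set the members apart. In unscaled TPM only 30 of the 45 were higher in pup 1, and their median log2 ratio of TPM was -0.28 beside 0.39 for all genes. In whole glands, fewer cells of a type and less RNA per cell cannot be told apart.

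**Figure D2:**
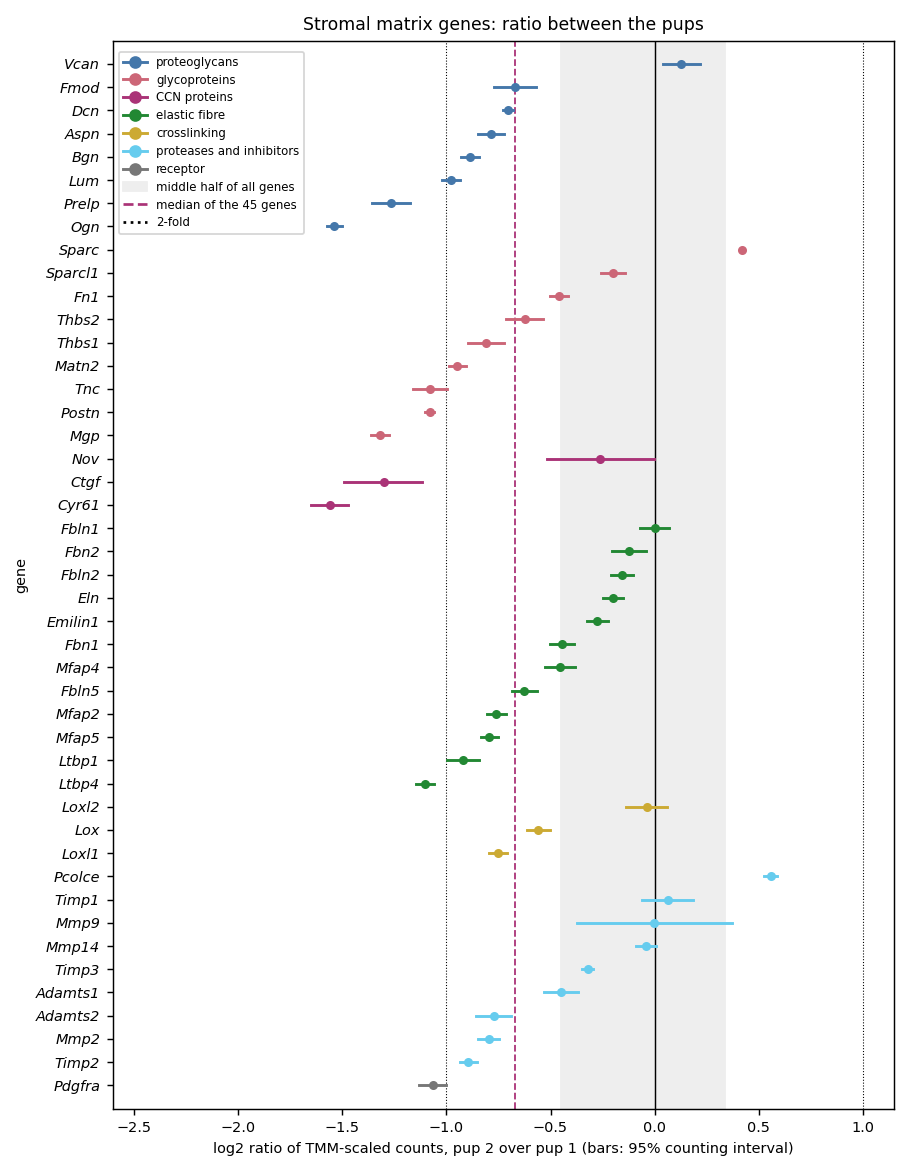
Log2 ratio of TMM-scaled counts, pup 2 over pup 1, of each gene (points) with the 95% counting interval (bars), coloured by class. The dashed line is the median of the 45 genes at -0.67, the grey band spans the quartiles of all genes tested, -0.45 to 0.34, and the dotted lines mark 2-fold. The points of 41 genes lie left of 0, and 9 lie beyond 2-fold, from Pdgfra at -1.07 to Cyr61 at -1.56.

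Proteoglycans were represented by 7 small leucine-rich members and the large Vcan. They summed to 1112 TPM in pup 1 and 769 in pup 2, and 7 of the 8 were higher in pup 1. The class median of the ratio was -0.83. Dcn, decorin, which binds collagen fibrils and TGF-beta (chr10:97479609-97518143, plus strand, mm10), was the most abundant at 472 TPM in pup 1 and 378 in pup 2, a log2 ratio of -0.71. Lum, lumican, its neighbour on the same chromosome (chr10:97565128-97572703), stood at 143 and 94.6 TPM, with a ratio of -0.98. Bgn, biglycan, the X-linked relative of decorin, had 135 TPM in pup 1 and 98.5 in pup 2, a ratio of -0.89. Dcn, Lum and Bgn were therefore lower in pup 2 on both scales, by less than 2-fold.

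Ogn, osteoglycin or mimecan (chr13:49608046-49624501, plus strand), showed the widest distance among the proteoglycans. It had 24660 counts and 250.4 TPM in pup 1 and 9015 counts and 113 TPM in pup 2, a log2 ratio of -1.54 (-1.57 to -1.50). Next to it on chromosome 13 lie Aspn, asporin, and 2 related genes outside the set, Omd and Ecm2. Aspn had 63.2 TPM in pup 1 and 47.9 in pup 2, a ratio of -0.78. Omd, osteomodulin, had 10.4 and 3.58 TPM and a ratio of -1.92, and Ecm2, which was picked out for its position after its values were seen, had 3.25 and 2.35 TPM and a ratio of -0.85. These 4 matrix genes were thus higher in pup 1, over a range of sizes. Cenpp, whose exons share 7 bases with Aspn on the opposite strand, had 636 and 673 counts and 15.7 and 20.5 TPM. In the chromosome 10 cluster, the cornea and cartilage members Kera and Epyc, chosen in the same way for their position, were low. Kera stood at 0.72 and 0.69 TPM on 54 and 42 counts, a ratio of -0.44 (-1.07 to 0.16). Epyc stood at 0.69 and 1.25 TPM on 45 and 69 counts, a ratio of 0.53 (-0.03 to 1.11).

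Of the remaining leucine-rich members, Prelp, which anchors basement membranes to collagen, stood at 22.9 TPM in pup 1 and 12.4 in pup 2, a ratio of -1.26. Its neighbour on chromosome 1, the fibril regulator Fmod, fibromodulin, had 16.4 and 13.5 TPM and a ratio of -0.67, which is also the median of the 45 genes. Vcan, versican, a large hyaluronan-binding proteoglycan of loose and growing matrix, was the exception of the class. It had 8.73 TPM in pup 1 and 11.1 in pup 2, and its ratio of 0.13 (0.04 to 0.22) was small.

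Versican exists in forms that differ in which of its 2 long exons for attachment of glycosaminoglycan chains they keep. Those exons have 2880 bases (chr13:89702918-89705797, minus strand) and 5217 bases (chr13:89688285-89693501). The transcript with both, Vcan-203, known as V0, held 34.96% of the gene's TPM in pup 1 and 35.16% in pup 2. Vcan-201, with neither, known as V3, held 29.6% and 31.9%, and Vcan-206, with the longer exon only, known as V1, held 4.53% and 12.3%. A short coding model of 861 bases, Vcan-208, held 25.6% and 17.0%. Among transcripts that span the place, the 5217-base exon was included in 57.2% and 59.5% and the 2880-base exon in 50.6% and 44.6%. The shares of V0 and V3 were thus nearly level between the pups. V1 had 0.4 TPM in pup 1 (deposited interval 0.198 to 0.649) and 1.36 in pup 2 (0.985 to 1.71), a log2 ratio of 1.40. It rested on 131 and 367 estimated counts, and V3 on 231 and 257.

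The 9 glycoproteins summed to 3342 TPM in pup 1 and 4688 in pup 2, yet 8 of the 9 were higher in pup 1 by ratio, with a median of -0.81. Sparc made the sum and the median point in different directions. Sparc, also called osteonectin, is a collagen-binding protein that many secretory and endothelial cells make as well as fibroblasts (chr11:55394500-55423183, minus strand). It had 115684 counts and 1932 TPM in pup 1 and 164169 counts and 3840 TPM in pup 2, and ranked 26 and 8 among the 21461 protein-coding nuclear genes. Its log2 ratio was 0.42 (0.41 to 0.43) on scaled counts and 0.99 on TPM. The gap between both scales is wider than for the median gene, and the effective length that divides the counts was 1484 bases in pup 1 and 1304 in pup 2.

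That length depends on the transcript mix. Sparc-205, a 741-base model annotated as a retained intron, held 40.8% of the gene's TPM in pup 1 and 44.95% in pup 2. The full-length coding transcripts Sparc-201 and Sparc-202 together held 57.3% and 45.5%, and their summed counts gave a log2 ratio of 0.28. Sparc-206, a 640-base coding model, had 726 estimated counts and 33.3 TPM in pup 1 (deposited interval 20.2 to 48.0) and 6387 counts and 360.2 TPM in pup 2 (328 to 382), a log2 ratio of 3.05. The TPM of Sparc was thus divided between short models and the full messengers, and the short coding model held more of it in pup 2.

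Mgp, matrix Gla protein, an inhibitor of calcification made by vessel wall and stromal cells (chr6:136872435-136875823, minus strand), ranked 2 in pup 1 and 4 in pup 2 among the 45 genes. It stood at 668 TPM in pup 1 and 349.7 in pup 2, on 13445 and 5719 counts, a ratio of -1.32 (-1.36 to -1.27). Postn, periostin, which links collagen to matricellular proteins in developing and loaded connective tissue (chr3:54361109-54391037, plus strand), had 521 TPM in pup 1 and 314 in pup 2, a ratio of -1.08. Both genes were thus over 2-fold higher in pup 1 relative to the typical gene. Matn2, matrilin-2, a filament-forming adaptor, had 95.6 and 64.8 TPM, a ratio of -0.95.

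Tnc, tenascin-C, an anti-adhesive protein of growing and healing matrix, stood at 12.9 TPM in pup 1 and 7.96 in pup 2, a ratio of -1.08. The thrombospondins, which bind cells and activate or restrain growth factors, were of like level. Thbs1 had 13.0 and 9.66 TPM with a ratio of -0.81, and Thbs2 had 10.9 and 9.21 TPM with a ratio of -0.62. Sparcl1, the relative of Sparc that is typical of vessels and glia, stood at 40.9 and 46.4 TPM, a ratio of -0.20. The 2 relatives Sparc and Sparcl1 had different signs on scaled counts, while both were higher in pup 2 in TPM.

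Fn1, fibronectin, the glycoprotein that cells assemble first and on which other fibres are laid (chr1:71585520-71653200, minus strand), had 48.4 TPM in pup 1 and 46.2 in pup 2. Its ratio was -0.46 (-0.50 to -0.41). Most of that TPM was not in full messengers, since Fn1-202, a 4022-base model annotated as a retained intron, held 59.0% in pup 1 and 53.9% in pup 2. Protein-coding transcripts held 33.0% and 32.3%.

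Fibronectin made in tissues can carry the extra domains B and A, each encoded by 1 exon that plasma fibronectin from liver leaves out, and tenascin-C can carry extra fibronectin type III repeats in the same way. The exons whose inclusion could be read from the transcript tables are printed here because the shares that follow count transcripts with and without them. They are written in the direction of transcription from the GENCODE M21 transcripts on mm10, and the 5 bases in capitals at each end are those joined to the neighbouring exons. All 3 are coding throughout. The 273-base extra domain B exon lies at chr1:71613763-71614035, the 270-base extra domain A exon at chr1:71603660-71603929 and the 273-base tenascin exon at chr4:63984460-63984732, each on the minus strand.
Fn1 extra domain B: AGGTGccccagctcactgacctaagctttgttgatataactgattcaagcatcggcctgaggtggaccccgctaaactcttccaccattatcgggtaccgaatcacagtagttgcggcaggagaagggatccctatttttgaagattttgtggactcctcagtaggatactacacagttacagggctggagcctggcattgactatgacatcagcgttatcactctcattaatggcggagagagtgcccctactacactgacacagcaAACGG
Fn1 extra domain A: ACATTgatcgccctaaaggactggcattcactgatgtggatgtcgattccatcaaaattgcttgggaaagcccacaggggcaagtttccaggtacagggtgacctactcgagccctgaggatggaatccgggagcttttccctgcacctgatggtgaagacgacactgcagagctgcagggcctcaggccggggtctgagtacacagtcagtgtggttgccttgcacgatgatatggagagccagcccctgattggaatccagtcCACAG
Tnc alternative repeat: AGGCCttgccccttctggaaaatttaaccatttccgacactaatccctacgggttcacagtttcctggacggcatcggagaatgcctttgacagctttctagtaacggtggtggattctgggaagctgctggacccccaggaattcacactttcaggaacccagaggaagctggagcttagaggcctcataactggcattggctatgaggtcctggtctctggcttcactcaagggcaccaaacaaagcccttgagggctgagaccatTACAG

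Among coding fibronectin transcripts that span the place, the extra domain A exon was included in 66.6% of TPM in pup 1 and 78.2% in pup 2. Extra domain B was included in 40.8% and 43.0%, all of it in Fn1-201, which carries both. Counting every model, with those annotated as retained introns, the shares were 23.3% and 29.3% for extra domain A and 37.8% and 36.9% for extra domain B. The libraries thus held fibronectin messengers with each exon and without it. Hepatocyte markers summed to 1690 TPM in pup 1 and 1291 in pup 2, and which cells the messengers came from was not tested. These shares are estimates from overlapping models, and for Fn1-214, which has extra domain A alone, the deposited interval ran from 0.00456 to 3.14 TPM in pup 1 and from 1.30 to 4.47 in pup 2. The tenascin exon was included in 37.1% of TPM in pup 1 and 20.3% in pup 2, carried by Tnc-203 at 4.77 TPM (3.83 to 5.39) and 1.62 TPM (0.988 to 2.11). Tnc-204, which skips it, had 8.09 and 6.17 TPM. The exon-bearing form of tenascin was the more distant of the 2 between the pups, with log2 ratios of -1.94 for Tnc-203 and -0.78 for Tnc-204.

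**Figure D3:**
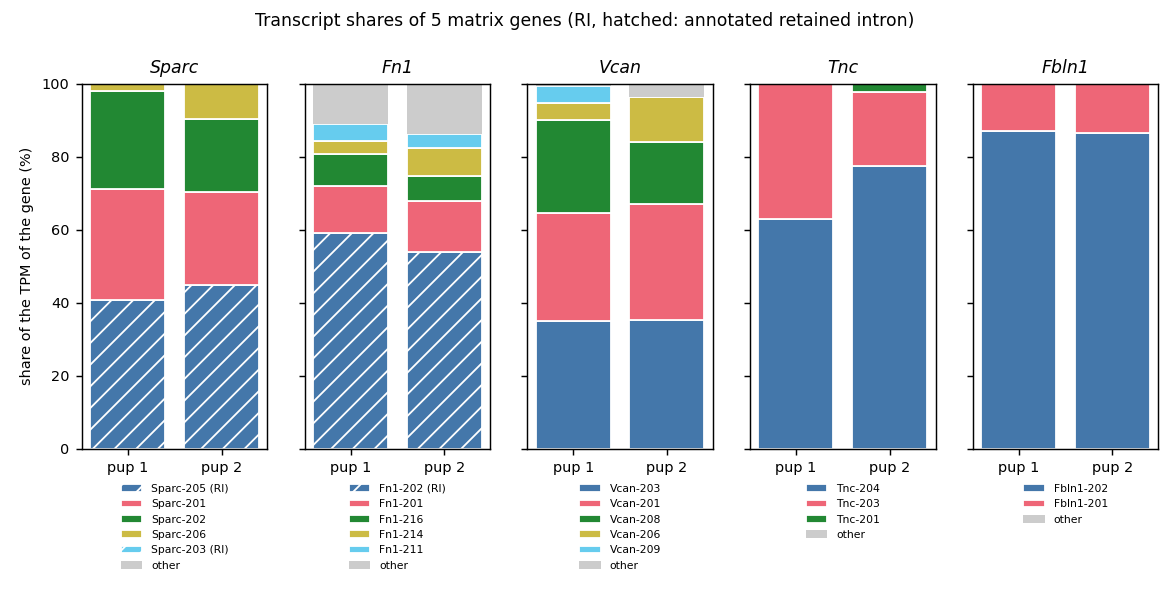
Share of the TPM of a gene, in percent, held by the leading annotated transcripts of Sparc, Fn1, Vcan, Tnc and Fbln1 in each pup. Leading models annotated as retained introns (RI) are hatched. Grey holds all further models, among them other retained introns of Fn1. The hatched models hold 40.8% and 44.95% of Sparc and 59.0% and 53.9% of Fn1 in their leading transcript, and the share of Tnc-203 is 37.1% in pup 1 and 20.3% in pup 2.

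The 3 CCN proteins are small secreted regulators of adhesion and growth factor action. As a class they summed to 65.3 TPM in pup 1 and 30.5 in pup 2, all 3 were higher in pup 1, and the median ratio was -1.30. Cyr61 (chr3:145646976-145649981, minus strand) had 3872 counts and 49.8 TPM in pup 1 and 1394 counts and 22.1 TPM in pup 2. Its log2 ratio of -1.56 (-1.65 to -1.47) was the lowest of the 45 genes. Ctgf, connective tissue growth factor, had 13.1 TPM in pup 1 and 5.82 in pup 2, on 788 and 339 counts, a ratio of -1.30 (-1.49 to -1.12). Its exons share 665 bases with the opposite-strand gene Gm15270, which had 92 and 51 counts, and the sources used here do not say whether counting used the strand. Nov stood at 2.42 and 2.64 TPM on 271 and 240 counts, a ratio of -0.26 (-0.52 to -0.00). The first 2 genes are known targets of the YAP and TEAD regulators and are quickly induced by serum and stretch, while Nov was neither abundant nor clearly apart between the pups.

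Ogn and Cyr61, the lowest ratios of the set, were examined in the 250 bases before the RefSeq start for GGAATG, the core that TEAD proteins bind, on either strand. The windows are printed because they belong to the 2 genes with the largest distance between the pups, and each holds 1 match, shown in capitals. They come from RefSeq on GRCm38.p6, in the direction of transcription, at chr3:145649986-145650235 on the minus strand and chr13:49607765-49608014 on the plus strand. The match in Cyr61 reads CATTCC, which is GGAATG on the other strand.
Cyr61: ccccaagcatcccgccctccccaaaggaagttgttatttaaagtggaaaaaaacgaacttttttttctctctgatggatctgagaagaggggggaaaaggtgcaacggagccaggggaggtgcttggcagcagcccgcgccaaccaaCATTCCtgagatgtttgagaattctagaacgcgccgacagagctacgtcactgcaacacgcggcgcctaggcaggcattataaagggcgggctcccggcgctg
Ogn: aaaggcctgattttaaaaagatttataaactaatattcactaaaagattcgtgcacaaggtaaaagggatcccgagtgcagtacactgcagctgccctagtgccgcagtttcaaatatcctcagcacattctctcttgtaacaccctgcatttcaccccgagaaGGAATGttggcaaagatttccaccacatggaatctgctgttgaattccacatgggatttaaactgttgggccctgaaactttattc

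A match was about as frequent in the set as elsewhere. It occurred in 4 of the 27 members for which the RefSeq table held a window (14.8%), namely Cyr61, Ogn, Mfap2 and Timp1, and in 14.4% of all 27025 genes with such a window. Windows of 18 members were not matched and were not searched. Of the 4, Cyr61 and Ogn had the lowest ratios of the set, for which they were picked, Mfap2 had -0.76 and Timp1 had 0.06. Of the other members over 2-fold higher in pup 1, Prelp, Ltbp4, Postn, Tnc and Pdgfra had windows without a match. Mgp and Ctgf had no window. Whether a match bears on the ratio of a gene was not tested.

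The 12 elastic fibre genes summed to 971 TPM in pup 1 and 827 in pup 2, and their ratios were closer to 0, with a median of -0.45. Mfap5 and Mfap2, the microfibril-associated glycoproteins that coat fibrillin, led the class. Mfap5 stood at 289.9 TPM in pup 1 and 214 in pup 2 with a ratio of -0.79, and Mfap2 at 258 and 199 TPM with a ratio of -0.76. Fbn1, the main fibrillin of the microfibril, had only 14.1 and 13.6 TPM and a ratio of -0.44, and Fbn2, the fibrillin typical of embryonic tissue, had 5.70 and 6.84 TPM and a ratio of -0.12. In RNA per length, Mfap5 and Mfap2 were thus over 10 times as abundant as the fibrillin genes in either pup. Protein was not measured. Eln, tropoelastin, stood at 71.1 TPM in pup 1 and 80.8 in pup 2, a ratio of -0.20, and Emilin1, which sits where elastin meets the microfibril, at 73.6 and 77.1 TPM, a ratio of -0.27. Mfap4, a fibrillin-binding protein of vessel walls, had 57.2 and 55.5 TPM and a ratio of -0.46. Its exons share 89 bases with Mapk7 on the opposite strand, which had 1462 and 1540 counts against 3641 and 2816 for Mfap4.

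The fibulins, adaptor proteins of elastic fibres and basement membranes, differed among themselves. Fbln2 had 49.6 TPM in pup 1 and 55.3 in pup 2 with a ratio of -0.16, and Fbln1 had 35.2 and 45.7 TPM with a ratio of -0.00 (-0.07 to 0.07), whose sign depends on the scaling. Fbln5 stood at 24.1 and 20.4 TPM with a ratio of -0.63. Of Fbln1, the transcript Fbln1-202 held 87.03% of TPM in pup 1 and 86.4% in pup 2 and Fbln1-201 held 13.0% and 13.6%, so the shares of the 2 forms differed by under 1 percentage point. Fbln2 led with a model annotated as a retained intron, Fbln2-206, at 52.8% and 47.1%.

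The latent TGF-beta binding proteins, which tether the inactive growth factor to microfibrils, were further apart. Ltbp4 had 71.5 TPM in pup 1 and 44.8 in pup 2, and at -1.10 it was the only elastic fibre gene past 2-fold. Ltbp1 had 20.8 and 14.2 TPM and a ratio of -0.92. Ltbp1 was also the only 1 of the 32 members with several transcripts whose leading transcript differed, with Ltbp1-202 first in pup 1 at 33.4% and Ltbp1-201 first in pup 2 at 37.2%.

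All 3 crosslinking enzymes, which oxidise lysines of collagen and elastin, were present, and they summed to 128 TPM in pup 1 and 110 in pup 2. Loxl1, tied to elastin upkeep, led at 79.8 and 61.9 TPM with a ratio of -0.75. Lox had 36.3 TPM in pup 1 and 32.3 in pup 2 and a ratio of -0.56. Loxl2, which acts on basement membrane collagen, had 12.1 and 15.4 TPM and a ratio of -0.04 (-0.14 to 0.06). The order Loxl1, Lox, Loxl2 held in both pups.

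Proteases and inhibitors summed to 641 TPM in pup 1 and 811 in pup 2, and 7 of 9 were higher in pup 1 by ratio, with a median of -0.32. Pcolce, the enhancer that speeds removal of the procollagen C-propeptide, stood apart from the other members. It had 12173 counts and 209 TPM in pup 1 and 18987 counts and 391 TPM in pup 2, and its ratio of 0.56 (0.52 to 0.59) was the highest of the 45. Its leading coding transcript, Pcolce-201, held 89.4% and 91.5% of TPM and gave the same ratio of 0.56. Adamts2, the enzyme that removes the N-propeptide, lay on the other side with 10.6 and 8.41 TPM and a ratio of -0.77.

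Among the metalloproteinases, Mmp14, the membrane-bound collagenase that activates Mmp2, had 68.2 TPM in pup 1 and 86.4 in pup 2, a ratio of -0.04 (-0.09 to 0.00). Mmp2, the gelatinase of stromal cells, had 67.4 and 50.6 TPM, a ratio of -0.80. The activator and its substrate were thus of like level in pup 1 and less so in pup 2. Mmp9, the gelatinase typical of myeloid cells and osteoclasts, was the lowest of the 45 genes at 1.18 TPM in pup 1 and 1.74 in pup 2. It rested on 120 and 127 counts, and its ratio of -0.00 had an interval of -0.37 to 0.37. Adamts1, a versican-cutting protease that other cell types also make, had 14.5 and 14.1 TPM and a ratio of -0.45.

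Timp3, the inhibitor that stays bound to the matrix, exceeded every protease of the set in both pups. It had 135 TPM in pup 1 and 142 in pup 2, a ratio of -0.32. Its exons share 1733 bases with Syn3 on the opposite strand, which had 350 and 156 counts against 24852 and 21101 for Timp3. Timp2 stood at 100.8 and 70.4 TPM with a ratio of -0.89. Timp1 had 34.3 and 46.8 TPM with a ratio of 0.06 (-0.06 to 0.18). The order of levels, Timp3, Timp2, Timp1, was common to both pups, and each inhibitor had its own sign or size of difference.

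Pdgfra, the receptor for platelet-derived growth factor on stromal progenitors, is the 1 growth factor receptor of the set. It had 5561 counts and 21.4 TPM in pup 1 and 2819 counts and 13.3 TPM in pup 2, a ratio of -1.07. Its exons share 456 bases with an opposite-strand gene, Gm42802, that had 0 counts in both pups.

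Across the 32 members with more than 1 annotated transcript, the leading transcript was the same for 31, and it held over 50% of TPM in both pups for 26. It was not coding for Sparc, Fn1 and Fbln2. In 8 members under 90% of TPM lay in transcripts that GENCODE M21 lists as protein-coding in at least 1 pup. For Emilin1, at 57.1% and 59.3%, the rest lay in models that M21 does not list. None of these counts was made over all genes, so they describe the members alone. With coding transcripts alone, a choice made after seeing the data, the ratio kept its sign in all 45 genes, and the mean summed level was 5350 TPM in place of 6765.

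Other matrix genes of the same classes, from 6 lists of 100 genes in all, were described in the same way. Of these, 65 reached a TPM of 1 in both pups and 91 averaged 10 counts or more. Of the 91, 61 were higher in pup 1 and 30 in pup 2, the median log2 ratio being -0.34, and 15 and 10 were over 2-fold higher in pup 1 and in pup 2, where 9.77% and 6.03% of all genes were. By list, the median was -0.57 for other proteoglycans (10 of 16 higher in pup 1), -0.11 for glycoproteins (9 of 17), -0.38 for elastic fibre genes (9 of 12), -0.13 for crosslinking enzymes (5 of 9) and -0.38 for proteases and inhibitors (27 of 36). Of the 3 other CCN genes only Wisp1 was counted well enough, with a ratio of -0.87. The most abundant was Igfbp7, a secreted protein that vessels also make, at 797 TPM in pup 1 and 1233 in pup 2, a ratio of 0.25. Serpinh1, the collagen chaperone of the endoplasmic reticulum, stood at 290.1 and 337 TPM with a ratio of -0.17, and Ecm1 at 221 and 311 TPM with a ratio of 0.13. Smoc2, a Sparc relative, had 122 and 70.1 TPM and a ratio of -1.18. Plod2, which hydroxylates collagen telopeptide lysines before the lysyl oxidases act, had 25.2 and 60.5 TPM and a ratio of 0.90.

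Marker genes of 16 cell types and neighbouring organs moved between the pups as well, and their part in the ratios of the matrix genes was not tested. None of the markers was at 0 in both pups. Higher in pup 1 were all 10 fibroblast markers, with a median log2 ratio of -0.50 and summed levels of 1659 TPM in pup 1 and 1628 in pup 2, and all 5 capsule markers, with a median of -0.80 and sums of 285 and 176 TPM. Mural cell and smooth muscle markers had a median of -0.56 (7 of 9 higher in pup 1, 138 and 116 TPM). Endothelial markers had a median of 0.73 (6 of 8 higher in pup 2, 244 and 402 TPM). Endothelial cells also make Sparc and Sparcl1, whose ratios of 0.42 and -0.20 differed in sign. Mesothelial markers lay at -0.06 and cartilage markers, at 4.81 and 8.86 TPM in sum, at 0.55. Of the 2 endocrine parts of the labelled tissue, steroidogenic markers summed to 6435 and 17156 TPM with a median of 1.18, and chromaffin markers to 1487 and 3515 TPM with a median of 0.53. Hepatocyte markers summed to 1690 TPM in pup 1 and 1291 in pup 2. Medians were -2.02 for neurons, -0.84 for Schwann cells and glia, -0.61 for leukocytes, -1.03 for neutrophils and -0.82 for hepatocytes. They were 2.10 for kidney (3 of 6 genes tested), 1.78 for skeletal muscle and 1.52 for adipocytes (3 of 4), with sums of 1.92 and 10.8, 56.0 and 229.6, and 5.14 and 32.5 TPM.

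**Figure D4:**
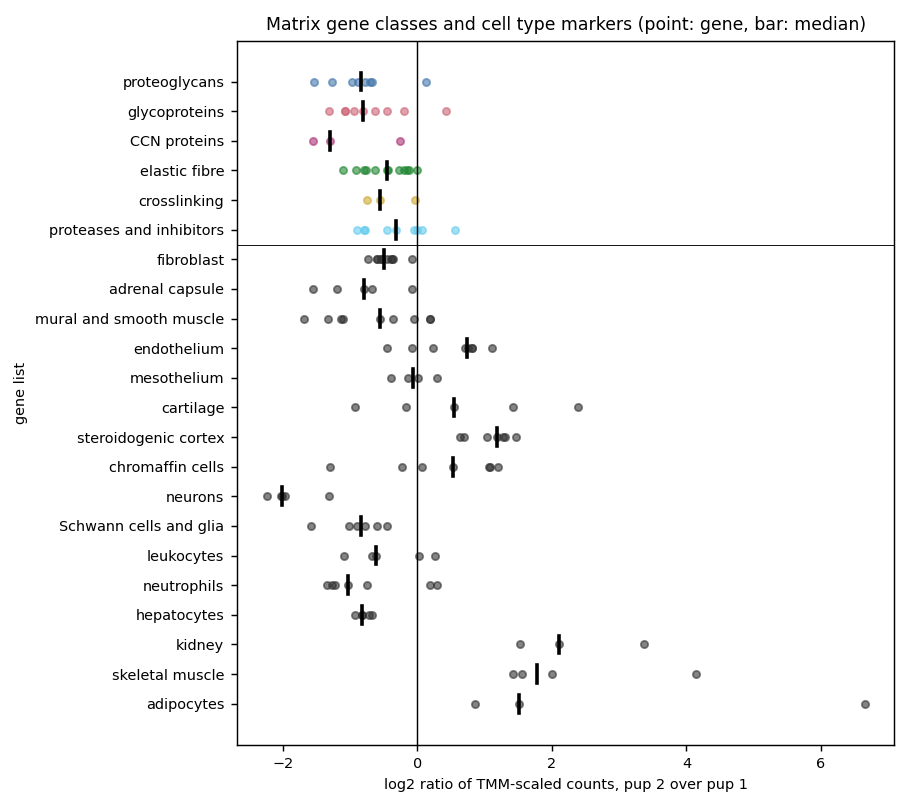
Log2 ratio of TMM-scaled counts, pup 2 over pup 1, of each gene (points) and the median (black bars) for 6 classes of the matrix genes, above the line, and 16 marker lists, below it, for genes averaging 10 counts or more. The class medians lie between -1.30 and -0.32, beside -0.50 for fibroblast, -0.80 for capsule, 0.73 for endothelial and 1.18 for steroidogenic markers.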

How the data were processed

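Total RNA-seq of 2 libraries of newborn mouse adrenal gland was used, 1 library per pup, both in 1 group per the labels. Both pups share the number of the pregnant animal, so their spread is that of 2 animals under 1 such number. The 45 genes and all gene lists were chosen with earlier results of these data known.

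Gene and transcript tables were deposited for both pups. They hold expected counts and posterior mean counts with standard deviations, per the file headers. They also hold TPM and FPKM as deposited, and for transcripts the isoform percent (how the TPM of a gene is divided). The bounds of an interval for TPM are deposited as a signal on the TPM scale, scaled over all rows with spike-ins. The deposited files name the mm10 build and GENCODE M4. Aligner, quantifier, versions and strand handling: not given in the sources used here.

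Each gene table listed 69691 rows, with 43346 Ensembl genes, 97 spike-ins (0.0138% and 0.00250% of counts) and 26248 rows named by a number (2.65e-05% and 9.59e-05%). Only Ensembl genes entered library sizes. GENCODE M21 gave symbols and coordinates, and 42462 Ensembl identifiers had one. Older CCN symbols were matched through RefSeq synonyms. Expected counts, not whole for 15.3% and 15.9% of genes, were rounded. Ratios are log2 of pup 2 over pup 1 of counts, with 0.5 added and TMM scaling by edgeR 4.0.16 under R 4.3.3. Genes averaging 10 counts or more were tested, and 2-fold was the fixed size. Intervals are exact binomial at 95% and cover counting error only, with each read taken as independent. Reads lacking molecular identifiers may repeat 1 molecule, and the intervals would then be too narrow. Each share of transcripts comes from the summed TPM of M21 models that contain or skip an exon. All 45 members are named. Of each list of related or marker genes, the rule names up to 3 members with the highest mean TPM, those with the largest and smallest ratio, and members at 0. Of transcripts, it names the leading one and the further ones of Fn1, Vcan, Fbln1 and Tnc. The further transcripts of Sparc and Pcolce, the short and the coding models, were named after their values were seen. Other genes the rule takes are given only through the counts and medians of their lists.

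Alternatives were DESeq2 1.42.0 size factors, spike-in and total count scaling, posterior mean counts, TPM and FPKM ratios, a pseudocount of 2, count minimums of 0 and 100, removal of a trend on length and GC content (polynomials of degree 3), other sums of TPM, and leaving out each pup. The restriction to protein-coding transcripts was chosen after seeing the data. On simulated data for pup 2 over pup 1 with 18626 genes, 99% of 100 genes changed 4-fold and 54% of 100 changed 2-fold were found over 2-fold apart, against 3.72% of 18426 unchanged genes. A 2-fold change sits at the threshold itself, so the 54% was largely fixed in advance and does not measure sensitivity. The simulation gave all genes the same assumed dispersion, and the changed genes had a mean of 100 counts or more. No dispersion can be estimated from 1 library per pup, so these shares describe that setting and give no error rate for these data. Python 3.11.15 ran the other steps, with pandas 2.3.3, scipy 1.17.1 and numpy 2.4.6. No sample was left out.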

Additional observations from a re-analysis of the deposited data

How the results depend on the processing

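With 1 library per pup there is no spread within a pup, and distances between the pups may reflect dissection, library or animal. No paired analysis was possible because the labels give 1 group. DESeq2 size factors, posterior mean counts, a pseudocount of 2, a minimum mean count of 100 and counts of coding transcripts alone changed the sign of no member, and having no minimum count changed that of Fbln1. The members' median minus that of all genes was -0.67 in scaled counts, a gap that another scaling factor cannot move. It was -0.68 for ratios of TPM and of FPKM, and -0.58 both with no minimum count and with coding transcripts alone, where the median gene has the ratio that equal counts, such as 0 and 0, give. In the last pair 37 and 36 members lay below the median of all genes, in place of 41. With spike-in counts, which set the median of all genes at 2.57, the members' median was 1.90, 0 members were higher in pup 1 and 45 were over 2-fold apart, with class medians of 1.73 (proteoglycans), 1.76 (glycoproteins), 1.27 (CCN proteins), 2.12 (elastic fibre), 2.01 (crosslinking) and 2.25 (proteases and inhibitors). On that scale Ogn was at 1.03, Prelp at 1.31, Postn at 1.49, Tnc at 1.49, Mgp at 1.25, Cyr61 at 1.01, Ctgf at 1.27, Ltbp4 at 1.47 and Pdgfra at 1.504. With total counts, where all genes had a median of 0.11, the members' median was -0.56, 5 were over 2-fold apart, and class medians were -0.72 (proteoglycans), -0.70 (glycoproteins), -0.34 (elastic fibre), -0.45 (crosslinking) and -0.21 (proteases and inhibitors), with the sign of Fbln1, Loxl2, Mmp9 and Mmp14 changed. Ratios of FPKM changed the sign of the same 4 and gave -0.56 overall and -0.70, -0.71, -0.32, -0.44 and -0.21 for those classes in that order. Ratios of TPM gave -0.28, 3 members over 2-fold apart, class medians of -0.43 (proteoglycans), -0.43 (glycoproteins), -0.050 (elastic fibre) and -0.17 (crosslinking), and 0.068 for proteases and inhibitors, with 11 members of changed sign. Removing the length and GC trend gave -0.37 for elastic fibre genes and changed the sign of Fbn2. Summed levels of all members were 5964 in FPKM, 9750 in TPM rescaled over protein-coding nuclear genes and 5350 in coding transcripts alone, chosen after seeing the data. The rescaled sums were 1379 for proteoglycans, 5749 for glycoproteins, 1309 for elastic fibre, 173 for crosslinking and 1043 for proteases and inhibitors, and coding transcripts alone gave 2712 for glycoproteins. Leaving out each pup gave sums of 6280.3 to 7249 TPM for all members. The cause of these shifts was not tested beyond the scaling itself. Depth limits Mmp9 and Nov most.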

Other observations

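Some matrix genes typical of other tissues were low in the newborn gland. Matn1, a cartilage matrilin, had 0 counts in both pups, and Acan, the cartilage proteoglycan aggrecan, stood at 0.03 TPM in pup 1 and 0.10 in pup 2. The tenascins of bone and brain, Tnn and Tnr, reached 0.04 and 0.17 TPM and 0.78 and 0.38 TPM, the latter on 174 and 54 counts. At the ends of the protease list, Tll2, a tolloid protease, had 28 counts in pup 1 and 3 in pup 2, and Adamts18 had 8 and 65, so their log2 ratios of -3.11 and 2.86 rest on few reads. Emilin3 had 3.11 and 1.49 TPM and a ratio of -1.45, while Mmrn1, a multimerin of endothelium and platelets, had 0.33 and 1.18 TPM and a ratio of 1.47.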
